A study of Mus musculus with 3 samples.

Results

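The 4 mature microRNAs (miRNAs) described here are the strands of the hairpins miR-10a and miR-10b: miR-10b-5p, miR-10a-5p, miR-10a-3p and miR-10b-3p. They were taken by name, as every row for either strand of these hairpins, and are 4 of the 1251 miRNAs listed. All 4 were found, with a value in each of 3 mice. Small RNA sequencing had been run on epididymal visceral white fat, snap-frozen, from C57BL/6J mice numbered 1, 3 and 9. From an age of 5 to 6 weeks the mice ate a high-fat diet for 11 weeks, with 45% of energy as fat, 20% as protein and 35% as carbohydrate. The diet was supplemented with EPA (eicosapentaenoic acid, a long-chain omega-3 fat found in fish oil) at 6.75% on a basis that is not stated. Tissue was taken after a 4 h fast. All 3 mice belong to this 1 group and no other diet was analysed here, so what EPA does to these strands was not measured. Apart from titles and a mention of 3 samples per group, nothing states that the samples came from separate animals, so p-values reflect the spread among these samples alone, and that spread may be technical.

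A miRNA hairpin is cut into a short duplex, and usually 1 strand of it is kept in an Argonaute protein, where bases 2 to 8, the seed, pair with messenger RNAs that are then repressed. The miR-10 genes sit inside the Hox clusters, whose transcription factors give cells their position along the body axis, and this placement is conserved across animals. Hox messenger RNAs are among the known targets of miR-10, and fat depots of different body regions are known to keep different Hox expression.

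The mature sequences are shown because the results turn on how little the strands that lead differ. They come from RefSeq on GRCm38.p6, the assembly of mm10, are written 5′ to 3′, and carry the seed in capitals.
miR-10b-5p: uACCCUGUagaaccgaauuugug
miR-10a-5p: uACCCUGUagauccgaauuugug
miR-10a-3p: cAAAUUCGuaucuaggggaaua
miR-10b-3p: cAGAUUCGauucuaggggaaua

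The 5p strands, 23 bases long, shared the seed ACCCUGU and were identical at 95.7% of positions. Counted from 1 at the 5′ end of miR-10a-5p, the 1 difference to miR-10b-5p was U12A, outside the seed. Among the 1001 listed miRNAs with a RefSeq sequence of the same name, no further miRNA had this seed. The 3p strands, 22 bases long, were identical at 86.4% of positions and differed by A3G, U9A and A10U, of which A3G lies in the seed. Each 3p seed was therefore its own, and no other listed miRNA with a sequence had either.

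The hairpins themselves are shown with the mature strands in capitals, the 5p strand first, to place both strands of each gene.
Mir10a: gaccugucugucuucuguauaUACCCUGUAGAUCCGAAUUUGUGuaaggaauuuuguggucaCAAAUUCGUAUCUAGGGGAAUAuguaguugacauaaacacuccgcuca
Mir10b: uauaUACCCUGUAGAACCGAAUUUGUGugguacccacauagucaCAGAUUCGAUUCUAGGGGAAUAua

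Mir10a is annotated with 110 bases at chr11:96317165-96317274 on the plus strand, in the Hoxb cluster. No GENCODE M21 gene overlaps it, the end of Hoxb5 lies 11043 bases to its left and the start of Hoxb4 lies 992 bases to its right. Mir10b is annotated with 68 bases at chr2:74726070-74726137 on the plus strand, in the Hoxd cluster. It lies in introns of Hoxd3 (1 transcript spans it) and of Hoxd4 (2 transcripts span it), and in no exon. Between the mature strands stood 18 bases in Mir10a and 17 in Mir10b. In the minimum free energy fold, 20 of 23 bases of the 5p strand and 20 of 22 of the 3p strand were paired in either hairpin.

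The values are the authors' log2 normalized reads, and their lowest value, 3.32, is the floor, at which a miRNA was not detectable. Linear values are given after subtracting the constant of 10 that this floor holds. The sorted columns of the 3 mice were nearly equal, with the same value at 85 of the top 100 ranks within 1e-06. Totals are therefore alike by construction, at 2405412 to 2405515 per mouse, and mice can differ in little but the rank of a miRNA. About 13.8 M mapped reads per sample are stated, but the depth of each library and its reads per miRNA are not given, so no counting interval is printed. Of a white fat and stroma list, 6 of 6 miRNAs stood above the floor in all mice, which alone does not identify the tissue. Among all 1251 listed, 316, 317 and 336 stood above it in mice 1, 3 and 9. miR-122-5p of hepatocytes stood at the floor in all mice.

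Both 5p strands were among the 5 most abundant miRNAs of every mouse, and their order was not the same in all mice. miR-10b-5p, which is the Hoxd-cluster strand, had 16.90, 17.77 and 17.77 log2 units in mice 1, 3 and 9. miR-10a-5p, the Hoxb-cluster strand, had 17.58, 16.90 and 17.20 log2 units in mice 1, 3 and 9. miR-10b-5p was thus the lower of the pair in mouse 1 and the higher in mice 3 and 9, and the ranges overlapped.

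In ranks among all listed miRNAs, miR-10b-5p held place 5 in mouse 1 and place 2 in mice 3 and 9. miR-10a-5p held place 3 in mouse 1, place 5 in mouse 3 and place 4 in mouse 9. The exactly equal values of miR-10b-5p in mice 3 and 9 follow from its equal rank there. The log2 step between neighbouring ranks was 0.19 from place 2 to 3, 0.38 from 3 to 4 and 0.30 from 4 to 5, the same in each mouse.

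The within-mouse difference of miR-10b-5p minus miR-10a-5p was -0.68 in mouse 1, 0.87 in mouse 3 and 0.57 in mouse 9, with a mean of 0.25 ± 0.82 log2 units (SD, n = 3). It was positive in 2 of 3 mice, and a two-sided exact sign-flip permutation test gave p = 0.75, where 0.25 is the smallest that 3 mice allow. The mean difference was 0.72 without mouse 1 and -0.053 without mouse 3, so neither strand could be placed above the other in this fat. In linear terms miR-10b-5p had 0.625 times the value of miR-10a-5p in mouse 1, 1.82 times in mouse 3 and 1.49 times in mouse 9.

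miR-10b-5p made up 38.5%, 64.6% and 59.8% of the summed 5p value in mice 1, 3 and 9. Together the 5p strands held 13.3%, 14.4% and 15.6% of all normalized reads in these mice, a mean of 14.4% ± 1.15 (SD, n = 3). On the log2 scale the sum was 18.40 ± 0.12. Since the pair took places 2 to 5 of a nearly common set of values, a narrow range of the sum follows in part from that set. How many mismatches the authors' mapping allowed is not given in the sources used here, so the split of reads between strands that differ by 1 base is less certain than their sum.

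**Figure D1:**
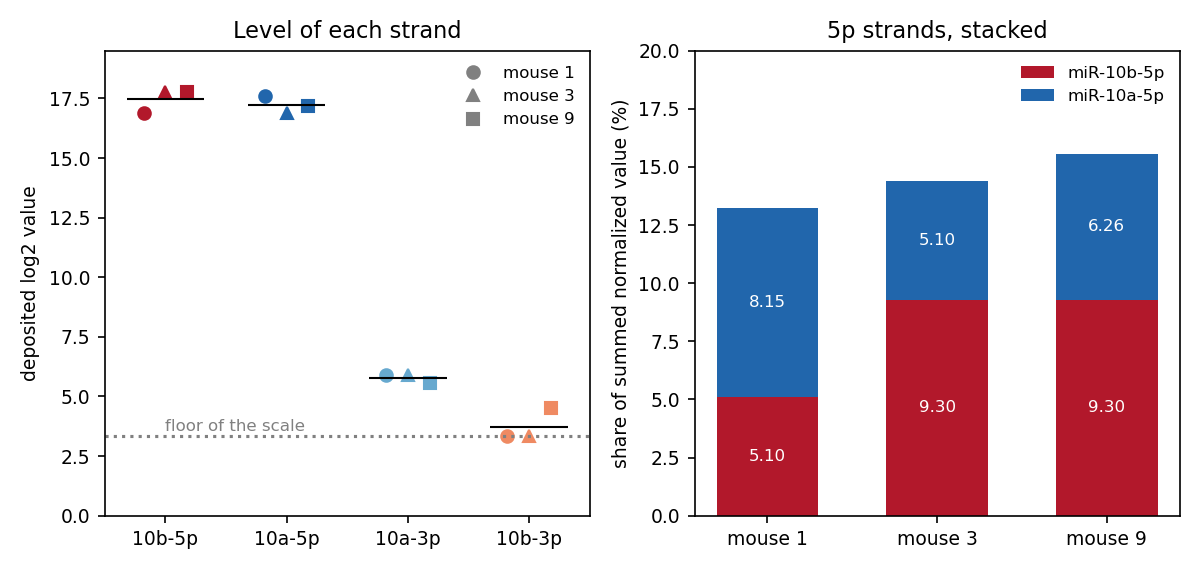
Left, deposited log2 value (vertical axis) of each strand, with 1 symbol per mouse, a black line at the mean of 3 mice and a dotted line at the floor of 3.32. Right, the share in percent of summed normalized reads held by the 5p strands, stacked per mouse; the shares inside the bars trade places between mouse 1 and the others while the total runs between 13.3% and 15.6%.

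The spread of the 5p strands was not small for their level. miR-10b-5p had an SD of 0.50 log2 units and miR-10a-5p one of 0.34, against a median of 0.29 over the 20 most abundant miRNAs and 0.22 over the 194 miRNAs that averaged 100 linear units or more. Counted from the largest SD, they were the 5th and the 8th of these 20. The highest ranks had the same values in each mouse, so both SDs reflect changes of rank and the steps between ranks.

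Against the neighbours in abundance, both strands stood below miR-22-3p and above let-7c-5p, a growth-restraining let-7 member, in 3 of 3 mice. miR-10b-5p exceeded miR-26a-5p in 2 of 3 mice and miR-10a-5p in 0 of 3. Each exceeded miR-143-3p, which promotes adipocyte differentiation, in 2 of 3 mice. The order of the miR-10 strands and miR-143-3p therefore did not hold beyond the spread between mice. No test was made on these levels.

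**Figure D2:**
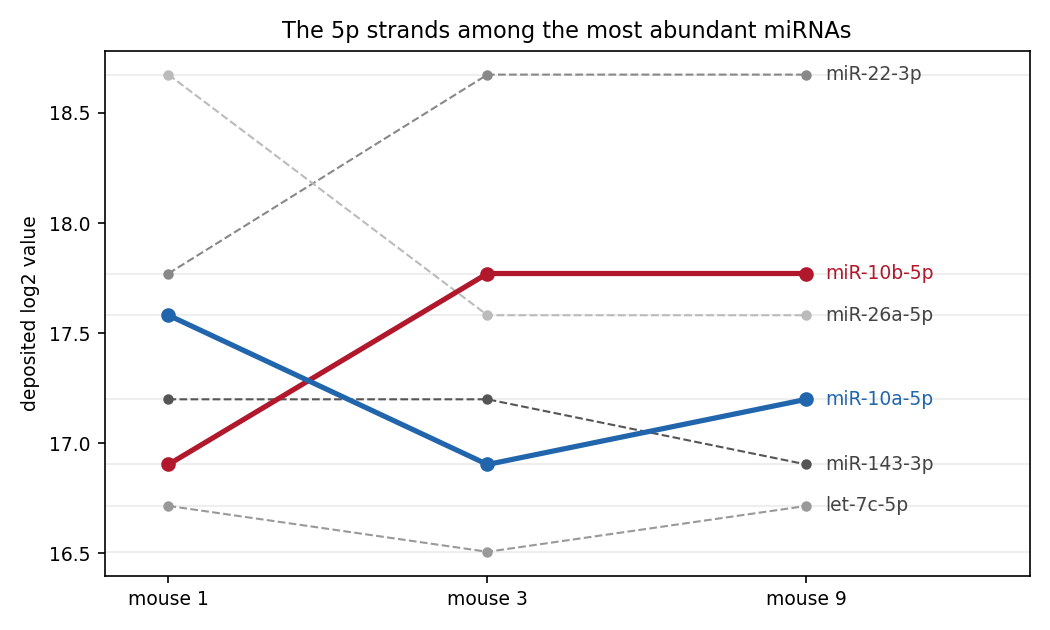
Deposited log2 value (vertical axis, starting above 0) in each mouse of the 5p strands and 4 other abundant miRNAs; lines only tie the values of 1 miRNA together, and pale horizontal lines mark the values of the first 7 ranks. miR-10b-5p and miR-10a-5p take 4 of these values, between 16.90 and 17.77.

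The change of order can be set beside other miRNAs that differ by 1 base. Among these 194 miRNAs, 11 pairs of equal length differed by 1 substitution. The other 10 pairs all kept their order in 3 of 3 mice, and miR-10b-5p with miR-10a-5p did not. The others lay further apart, with mean differences of 0.30 to 4.81 log2 units against 0.25. An equal spread would thus reverse them less easily. Some miRNAs, such as let-7a-5p, were in more than 1 pair. The SD of the within-mouse difference was 0.82 log2 units for the miR-10 pair, against a median of 0.17 and a range of 0.04 to 0.78 for the other 10. Next in spread was miR-103-3p with miR-107-3p, regulators of insulin sensitivity, at differences of 3.76, 3.61 and 5.03 in mice 1, 3 and 9. The pair with the closest mean to that of the miR-10 strands was let-7c-5p with let-7a-5p, at 0.21, 0.49 and 0.21. For pairs among the highest ranks, the SD of the difference also depends on the steps between the nearly common values. This is a description of these libraries, with no test of the difference between pairs.

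**Figure D3:**
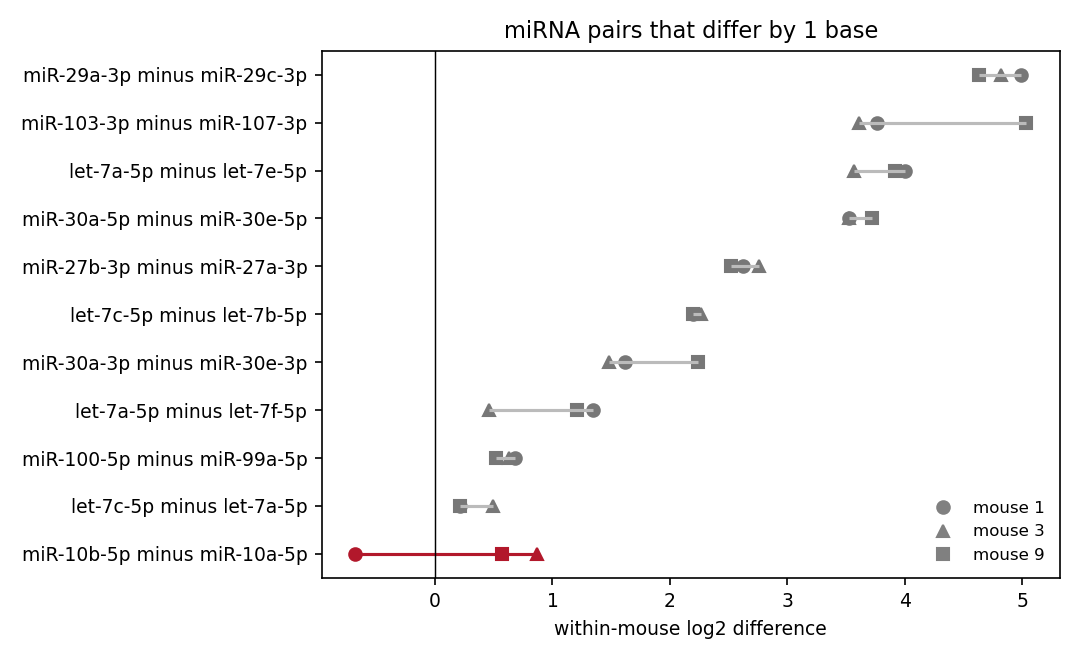
Within-mouse log2 difference (horizontal axis) of each of 11 miRNA pairs that differ by 1 base, with 1 symbol per mouse and a bar over the range. The miR-10 pair at the bottom, from -0.68 to 0.87, is the one whose bar crosses 0.

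The 3p strands, the ones that are usually discarded, were far below the 5p strands, and miR-10b-3p was at or near the limit of detection. miR-10a-3p had 5.90, 5.92 and 5.55 log2 units in mice 1, 3 and 9, which are 49.7, 50.5 and 37.0 linear units above the floor. It held places 218, 216 and 231 in these mice. miR-10b-3p stood at the floor in mice 1 and 3 and had 4.52 log2 units, or 12.96 linear units, in mouse 9. For scale, the lowest value above the floor was 3.40, 2.67 and 0.661 linear units in mice 1, 3 and 9. miR-10a-3p was thus seen in all mice and miR-10b-3p in 1 of 3, and the values of the strands did not overlap.

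The difference of miR-10a-3p minus miR-10b-3p was 2.58, 2.60 and 1.03 log2 units in mice 1, 3 and 9, a mean of 2.07 ± 0.90 (SD, n = 3). It was positive in 3 of 3 mice, with p = 0.25 by the two-sided exact sign-flip permutation test, the smallest possible. The size depends on the constant added, at 4.26 with a pseudocount of 1 and 0.96 with 40, the constant stated by the authors. The mouse with miR-10b-3p above the floor, mouse 9, was the one with the lowest miR-10a-3p. Mouse 9 also had the most miRNAs above the floor, 336 against 316 in mouse 1 and 317 in mouse 3. Whether these go together was not tested.

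Both hairpins kept the 5p strand far above the 3p strand. For miR-10a the 5p strand had 3948 times the linear value of the 3p strand in mouse 1, 2428 times in mouse 3 and 4072 times in mouse 9, so that the 3p strand made up 0.0253%, 0.0412% and 0.0245% of its hairpin's reads. For miR-10b the ratio was 17260 in mouse 9, where the 3p strand made up 0.00579%, and no ratio is given for mice 1 and 3, where it was listed at the floor. In mouse 9, the mouse in which all 4 strands had a value above the floor, the ratio of miR-10b was thus above that of miR-10a.

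The log2 ratio of 5p to 3p on the deposited scale was 13.58, 14.45 and 13.25 for miR-10b in mice 1, 3 and 9. Its mean was 13.76 (limma's moderated SE 0.28, SE of the 3 values 0.36). For miR-10a the ratio was 11.68, 10.98 and 11.65, a mean of 11.44 (moderated SE 0.21, SE of the 3 values 0.23). limma's moderated test over 129 hairpins, two-sided, gave a Benjamini-Hochberg adjusted p of 3.79e-06 for each. Of these hairpins 66 were called with the 5p strand higher (51.2%), 59 with the 3p strand higher (45.7%) and 125 in either direction (96.9%), so a call alone does not set the miR-10 hairpins apart. By the mean ratio on this scale they came 1st and 3rd of 129. That of miR-10b rests on the floor in 2 mice. The ratio of miR-10a does not, but its place does, since hairpins such as miR-191, with its 3p strand at the floor in 3 of 3 mice, have ratios that are only lower bounds.

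**Figure D4:**
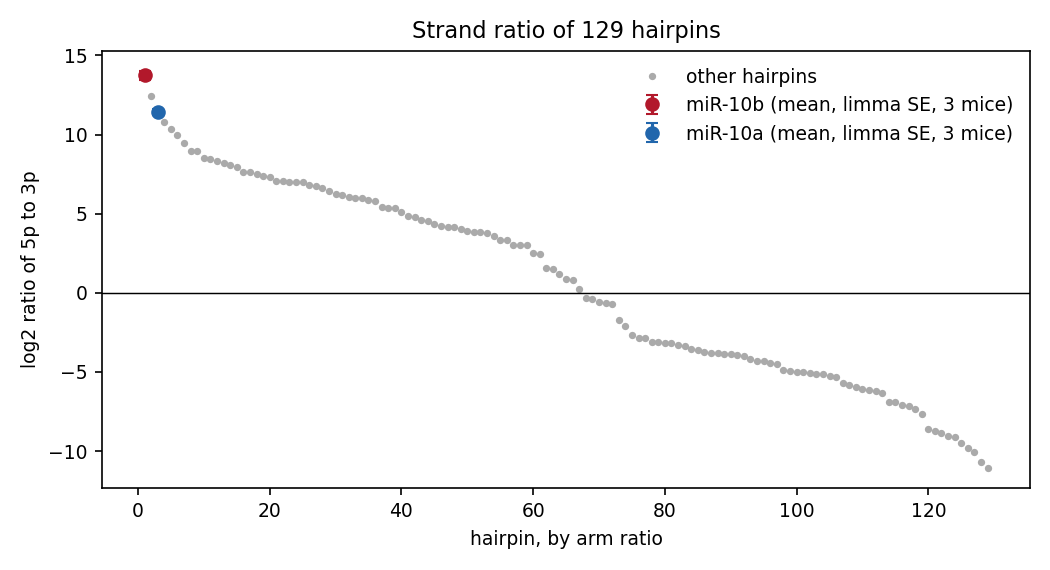
Mean log2 ratio of 5p to 3p over 3 mice (vertical axis) for 129 hairpins in order of that ratio (horizontal axis); grey points are other hairpins, and error bars on the coloured points are limma standard errors. miR-10b at 13.76 and miR-10a at 11.44 lie at the 5p end.

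The ratio of miR-10b exceeded that of miR-10a by 1.90, 3.46 and 1.60 log2 units in mice 1, 3 and 9, a mean of 2.32 (SD 0.9997, n = 3). The two-sided exact sign-flip permutation p was 0.25, the smallest possible. This difference was 4.52 with a pseudocount of 1 and 1.21 with 40. In mouse 1 the 5p strand of miR-10b was the lower of the pair, so the larger ratio of miR-10b there came with its 3p strand at the floor.

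Both 5p strands begin with U and both 3p strands with C. Of 55 hairpins with the 5p strand higher and both strands matched to a sequence, 34 (61.8%) had a 5p strand that begins with U, and 9 (16.4%) a 3p strand that does. The combination of the miR-10 hairpins, U on the higher strand and C on the lower, was found in 15 of the 55 (27.3%). These shares include the miR-10 hairpins and are given with no test.

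Other miRNAs of the Hox clusters stood far below the miR-10 5p strands. Of 7 listed strands of miR-196a, miR-196b and miR-615, 3 were seen in every mouse and 4 in none. miR-615-3p, whose hairpin lies in an intron of Hoxc5, had 8.98, 8.84 and 9.21 log2 units in mice 1, 3 and 9. miR-196a-5p, which is made from hairpins in the Hoxb and Hoxc clusters and represses Hox genes, had 7.17, 8.73 and 3.96. miR-196b-5p, from the Hoxa cluster, had 4.91, 8.11 and 3.92. miR-615-3p varied little. The miR-196 strands were highest in mouse 3, where miR-10a-5p was at its lowest. In mouse 9 they were lowest, while miR-10a-5p lay between its other values. Their order over the mice was thus not the reverse of that of miR-10a-5p. Mir196a-1 lies in the same Hoxb cluster as Mir10a, at chr11:96265164-96265265, but the table does not separate its 5p strand from that of Mir196a-2. Their 3p strands, which differ by name, were both at the floor in all mice.

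The miR-99 and miR-100 group was among the listed miRNAs closest in sequence to the miR-10 5p strands. Its strands are shown with the seed in capitals to make the shift against miR-10 visible.
miR-100-5p: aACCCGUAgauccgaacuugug
miR-99a-5p: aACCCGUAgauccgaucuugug
miR-99b-5p: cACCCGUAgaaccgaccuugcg

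miR-100-5p was 3 edits (substitutions, insertions or deletions) from miR-10a-5p and 4 from miR-10b-5p, and miR-99a-5p was 4 and 5 edits from them. miR-99b-5p was 6 edits from miR-10a-5p and 5 from miR-10b-5p, and miR-125b-5p was 6 edits from each. The seed shared by miR-100-5p, miR-99a-5p and miR-99b-5p, ACCCGUA, differs from that of miR-10. On the log2 scale miR-99b-5p averaged 14.85 ± 0.32, miR-100-5p 12.41 ± 0.08 and miR-99a-5p 11.80 ± 0.13 (SD, n = 3). The related miR-125a-5p averaged 15.38 ± 0.15 and miR-125b-5p 13.82 ± 0.13. In every mouse both miR-10 5p strands stood above all 5.

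**Figure D5:**
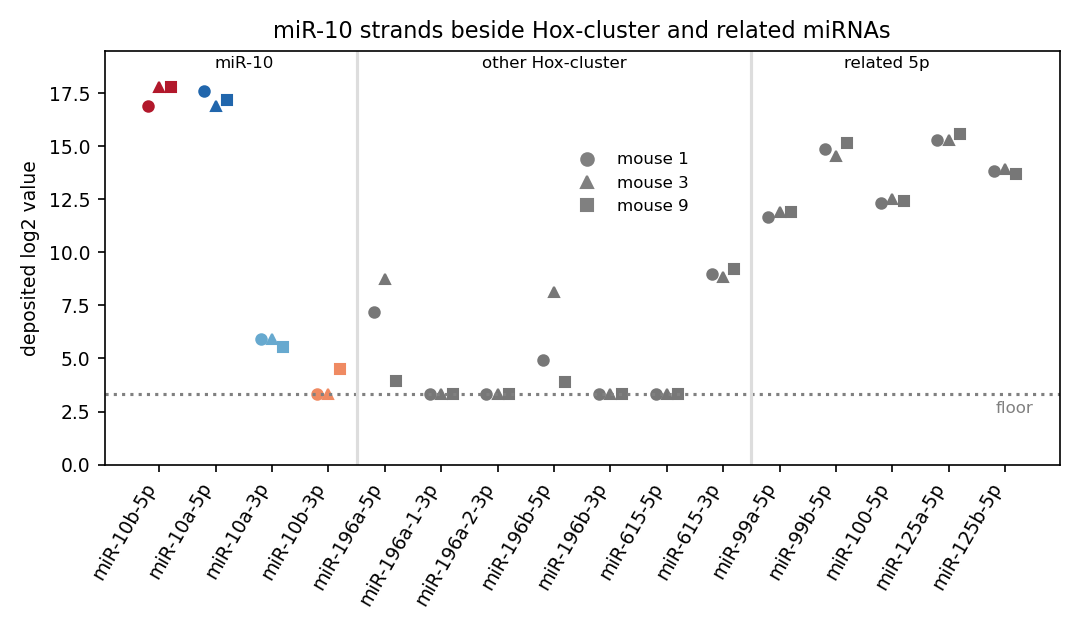
Deposited log2 value (vertical axis) of the 4 miR-10 strands, 7 other Hox-cluster strands and 5 related 5p strands, with 1 symbol per mouse and a dotted line at the floor of 3.32. The miR-10 5p strands are at the top, and 4 of the 7 other Hox-cluster strands lie on the floor.

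The miRNAs whose pattern over the 3 mice was most like that of each 5p strand were different for the strands of the pair. Likeness was the root mean square distance of mean-centred log2 values. For miR-10b-5p the 5 closest of 192 miRNAs were miR-195a-5p (distance 0.02), miR-22-3p (0.02), miR-149-5p (0.02), miR-128-3p (0.04) and miR-29b-3p (0.09), which like it were lowest in mouse 1. For miR-10a-5p they were miR-148b-3p (0.03), miR-434-5p (0.05), miR-381-3p (0.06), miR-744-5p (0.06) and miR-223-3p (0.07), which like it were highest in mouse 1 and lowest in mouse 3. The median distance over the 192 was 0.46 for miR-10b-5p and 0.31 for miR-10a-5p. With 3 mice such closeness is a description only. The small distance between miR-10b-5p and miR-22-3p follows from their places in the nearly common set of values. In mice 1, 3 and 9 miR-22-3p held places 2, 1 and 1, and miR-10b-5p places 5, 2 and 2.

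Markers of other cell types also differed between the mice. Of 6 striated muscle miRNAs, miR-133a-3p and miR-133b-3p were seen in every mouse, and miR-208a-3p was at it in all mice. miR-1a-3p and miR-206-3p, which are defining for muscle, were at the floor in mouse 1, and in mice 3 and 9 they reached at most 5.53 log2 units. The summed muscle list held 0.163% of normalized reads in mouse 1, 3.57% in mouse 3 and 2.79% in mouse 9, low in the mouse in which miR-10b-5p was low. miR-133a-3p alone supplied 85150 of 85898 linear units of this list in mouse 3 and 66274 of 67096 in mouse 9. The epithelial list, with 4 of 7 above the floor in all mice, held 0.0692%, 0.157% and 0.0378% in mice 1, 3 and 9. Its largest part in mouse 3 was miR-205-5p, while miR-200a-3p and miR-200b-3p were highest in mouse 1. The endothelial list, with 2 of 2, held 0.618%, 0.884% and 0.653%. The leukocyte list, with 3 of 4, held 0.367%, 0.354% and 0.381%, and the erythroid list, with 2 of 3, held 0.285%, 0.197% and 0.179%. Of the pancreas and germ cell lists, with 0 of 3 and 2 of 5 seen in every mouse, neither exceeded 0.0195% in any mouse. Of the pancreas list miR-375-3p had 468 linear units in mouse 1, stood at the floor in mouse 3 and had 7.35 in mouse 9. For a bulk tissue, fewer cells of a type and less RNA per cell cannot be told apart, and the part of these cell types in the order of miR-10b-5p and miR-10a-5p was not tested.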

How the data were processed

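Per the labels' protocols, total RNA was isolated from frozen fat and was sequenced after Illumina small RNA library preparation. The authors deposited log2 values of mature miRNAs in 1 column per mouse. Per the series' design text they used the Gunaratne pipeline, placed some 13.8 M reads of each sample on mm10, scaled to all usable reads and then added 40 counts. The values hold a constant of 10 in its place, as 260 values lie between 10 and 40. No aligner is given in the sources used here. The same build is given per the submitters' processing notes.

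Linear values are the power of 2 minus 10. The strand test used limma 3.58.1 in R 4.3.3, on within-mouse log2 differences of hairpins with both strands listed and the larger at a mean of at least 100, adjusted by Benjamini-Hochberg at 0.05, and was tested on simulated data. Single differences used exact sign-flip tests. RNAfold 2.7.2 folded the hairpins, and Python 3.11.15 did the rest. The members, lists and tests were chosen with earlier results of these data known. The miRNAs named were all 4 members, those of the fixed lists, the neighbours in rank, sharers of a seed and the 5 nearest patterns. The pairs that differ by 1 base and the first bases were added after values were seen. Alternatives were pseudocounts of 1 and 40, median-ratio scaling, other filters, a trended prior, other totals for shares and leaving out each mouse.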

Additional observations from a re-analysis of the deposited data

How the results depend on the processing

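Of 98 recomputed values, 91 stayed within the spread between mice, kept their direction and side of the threshold, or gave a similar count. Some of these checks could not have failed. Leaving out 1 of 3 mice cannot shift a mean by the SD of its values, and scaling a library leaves its shares unchanged. The sign-flip p cannot fall below 0.25, so its side of the threshold was fixed. Leaving out each mouse gave -0.053 to 0.72 log2 units for miR-10b-5p minus miR-10a-5p, and the direction reversed without mouse 3. With a pseudocount of 1 miR-10a-3p averaged 5.53 and miR-10b-3p 1.27 log2 units. With 40, the constant stated by the authors, they averaged 6.42 and 5.46, and the differences that use the 3p strands moved as given with them, as the pseudocount sets values near the floor. With a minimum mean of 1000, which left 67 hairpins to test, 39 were called with the 5p strand higher and 28 with the 3p strand higher. With no filter on level 224 of the residual variances of the 425 hairpins were 0, and limma's prior is then unreliable. With other filters, chosen after the data were seen, 7 of 7 and 11 of 11 other pairs that differ by 1 base kept their order. No paired analysis was possible because there is 1 group, and the strand comparisons are already within mouse. The depth of each library is not given, and a strand at the floor was not detectable, and may still have been present.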
